A study of Mus musculus with 24 samples.

Results

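The effect of an oral MEK inhibitor on the inflamed mouse colon was set against the effect of an antibody to TNFa, each against its own control arm. The quantity tested for each gene was the log2 fold change of MEKi 1 against Vehicle minus the log2 fold change of anti-TNF against Isotype, here called the difference of effects. It used 16 of the 24 RNA-seq libraries of the series, 4 in each of the 4 groups. A positive difference means that the gene stood higher under MEK inhibition than under anti-TNF, each relative to its own control.

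All 4 groups were female C.B-17/Icr-scid/scid (SCID) mice, bought at 7 weeks of age, which lack mature T and B cells and received CD4+ T cells from BALB/c spleens that had been activated with Concanavalin A and recombinant human IL-2. MEKi 1 mice were given enteric microparticles of a MEK inhibitor by mouth, 1 mg/kg daily on days 17 to 27. Vehicle mice are recorded as given 0.5% methylcellulose, and the labels do not say whether their doses held empty microparticles, so an effect of the inhibitor and one of its carrier cannot be told apart. Anti-TNF mice were injected intraperitoneally with 0.1 mg of anti-TNFa antibody per mouse every 4 days beginning on day 17. Isotype mice had a control antibody on the same plan. Distal colon was taken on day 28 in every group, so the route, the number of doses and the control all differ between both treatments. The labels do not say that each library is a separate animal, and p-values therefore measure only the spread between these samples.

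MEK is the kinase that phosphorylates and activates ERK, and in many cell types active ERK raises its own feedback genes, among them the Dusp phosphatases, the Spry proteins and the Etv factors. TNF binds receptors on epithelial, endothelial and myeloid cells and turns on NF-kB, which drives adhesion molecules, chemokines and inflammatory cytokines. In transfer colitis, CD4+ T cells expand in a host without lymphocytes of its own and recruit neutrophils and macrophages into the colon.

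Library totals were 3175698 to 4678256 counts in MEKi 1, 4102817 to 5271844 in Vehicle, 6974099 to 8545019 in anti-TNF and 6139216 to 10587555 in Isotype. Levels are in CPM (counts scaled to a common library size, with TMM factors), changes are log2 fold changes ± SE, and a gene is called at an adjusted p under 0.05 in edgeR's quasi-likelihood test over 14773 genes. The colon markers Cdx2, Vil1, Car1, Slc26a3 and Muc2 were present in all 16 libraries, with Muc2, the main mucin of goblet cells, at 1426 to 6016 CPM. Pancreas transcripts, summed over 13 genes, reached 7478 CPM in Vehicle replicate 4 and 5374 CPM in Isotype replicate 1, and at most 226 CPM in the other 14 libraries, so each comparison has 1 such library, in its control group. Their part in the results was not tested beyond refitting without them. A table of the whole series gives 16 of its 24 columns another sample's name. Groups here follow each sample's own file. The other naming would move 4 antibody libraries to the opposite group, replicates 1 and 2 of anti-TNF with replicates 3 and 4 of Isotype.

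Most genes that responded to MEK inhibition leaned the same way under anti-TNF, and 2 genes differed between the treatments. In MEKi 1 against Vehicle, 1565 of 14773 genes were called (10.6%), 898 higher (6.08%) and 667 lower (4.51%), and at an unadjusted p under 0.05 there were 4485 genes (30.4%). In anti-TNF against Isotype, 3 genes were called (0.0203%), 1 higher (0.00677%) and 2 lower (0.0135%). At an unadjusted p under 0.05 there were 1653 genes (11.2%), 839 higher (5.68%) and 814 lower (5.51%). In the difference of effects, Banp and Klf11 were called (0.0135%), 1 in each direction (0.00677% each), and DESeq2 called 8. At an unadjusted p under 0.05 there were 729 genes (4.93%), 465 with a positive (3.15%) and 264 with a negative difference (1.79%). The median SE of a gene was 0.31 for the difference, 0.22 for MEKi 1 against Vehicle and 0.21 for anti-TNF against Isotype.

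The count for MEKi 1 rested on few libraries. It was 43, 2369 and 220 when replicates 1, 2 and 3 of MEKi 1 were left out one at a time. Leaving out replicates 1, 2 and 4 of Vehicle in the same way gave 324, 812 and 128, and leaving out both libraries high in pancreas transcripts gave 391. Leaving out Isotype replicate 4 raised the count for anti-TNF to 34, and DESeq2 with all libraries called 85. Of the 3 genes called in anti-TNF, Gpr84 was called in all 16 fits that left out 1 library, Mcemp1 in 6 and Klf11 in 4. With library size alone as the scaling, 639 genes were higher and 714 lower in MEKi 1, against 898 and 667 with TMM factors. The 2 calls of the difference held when any one of the 16 libraries was left out, and also without both libraries high in pancreas transcripts, with 5 calls in all when Isotype replicate 3 was absent. Neither held with the antibody libraries named as in the series table, where the difference had 0 calls and 1025 genes with an unadjusted p under 0.05.

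**Figure D1:**
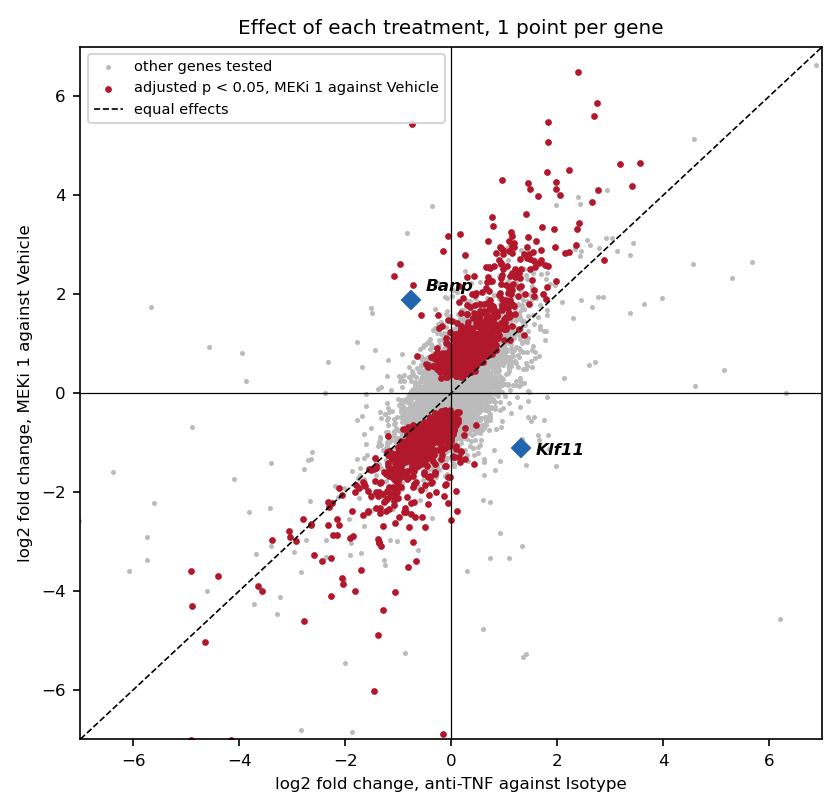
Log2 fold change of MEKi 1 against Vehicle (vertical axis) plotted against that of anti-TNF against Isotype (horizontal axis), 1 point per gene, with genes called in MEKi 1 in red and the dashed line marking equal effects. Most red points lie in the upper right and lower left, Banp lies in the upper left and Klf11 in the lower right, and 26 genes fall outside the plotted range of 7 log2 units either way.

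Banp encodes a nuclear DNA-binding protein that in mouse cells binds CGCG elements at promoters (chromosome 8, 121949750 to 122029258, GENCODE M21 on mm10). Its level was 29.1, 37.9, 27.4 and 40.9 CPM in MEKi 1, against 10.3, 11.0, 9.97 and 5.08 CPM in Vehicle. It was 8.37, 11.4, 9.67 and 10.5 CPM in anti-TNF, against 11.4, 16.6, 20.8 and 18.8 CPM in Isotype. Every MEKi 1 library lay above every Vehicle library, while anti-TNF lay at the low end of Isotype with the highest anti-TNF library reaching the lowest Isotype one. Banp rose by 1.89 ± 0.25 in MEKi 1 against Vehicle (adjusted p = 0.00151), and its change in anti-TNF against Isotype was -0.75 ± 0.24 (adjusted p = 0.259). The difference of effects was 2.64 ± 0.35, with a 95% interval of 1.92 to 3.36 (adjusted p = 0.00119). Banp also stood 0.89 ± 0.25 higher in Isotype than in Vehicle, which was not called (adjusted p = 0.0530). In the lower-dose MEKi 0.3 libraries it was 21.5, 31.4, 24.6 and 44.4 CPM, all above the Vehicle libraries.

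Klf11, a zinc-finger repressor of the Krüppel-like family that is induced by TGF-beta (chromosome 12, 24651274 to 24662789), went the other way. Its level was 4.13, 3.56, 4.60 and 3.47 CPM in MEKi 1, against 9.29, 7.98, 8.47 and 8.73 CPM in Vehicle. It was 8.81, 8.20, 7.55 and 14.2 CPM in anti-TNF, against 4.96, 4.13, 2.78 and 3.50 CPM in Isotype. Neither pair of groups overlapped. Klf11 fell by 1.12 ± 0.26 in MEKi 1 against Vehicle (adjusted p = 0.0146) and rose by 1.32 ± 0.24 in anti-TNF against Isotype (adjusted p = 0.0453), a call that held in 4 of the 16 fits without 1 library, with estimates of 1.07 to 1.46. The difference of effects was -2.44 ± 0.35, with a 95% interval of -3.16 to -1.72 (adjusted p = 0.00207). The control arms differed as well, with Klf11 lower in Isotype than in Vehicle by 1.15 on the log2 scale (SE 0.24, adjusted p = 0.0112), and MEKi 1 levels lay within the range of Isotype. In MEKi 0.3 it was 3.47, 4.21, 5.79 and 6.79 CPM, below every Vehicle library.

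**Figure D2:**
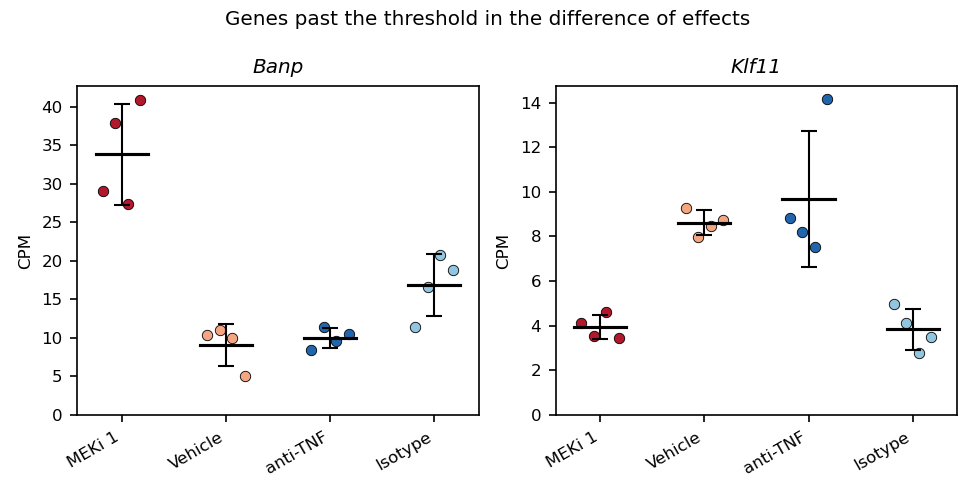
CPM of Banp and Klf11 in each library, with points for libraries, a bar for the mean and lines for the SD (n = 4 per group). Banp is at 27.4 to 40.9 CPM in MEKi 1 and at most 20.8 CPM in the other 3 groups, and Klf11 is at 7.55 to 14.2 CPM in Vehicle and anti-TNF and at most 4.96 CPM in MEKi 1 and Isotype.

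Among the genes next in order of p in the difference was Nfya, the DNA-binding subunit of NF-Y, which binds CCAAT boxes. The RefSeq promoter of Klf11 (GRCm38.p6, chr12:24651221-24651272, plus strand, 150 to 99 bases before the RefSeq start) is shown because it holds 2 CCAAT boxes, both on the opposite strand and so read as ATTGG, in capitals.
Klf11: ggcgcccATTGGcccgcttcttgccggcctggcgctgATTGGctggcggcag
CCAAT on either strand was found in 37.4% of 32851 promoters of 300 bases, so its presence does not set Klf11 apart.

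Beyond Banp and Klf11 no gene passed the adjusted threshold in the difference, so the following are values and not calls. Nfya had a difference of 0.95 ± 0.18 (adjusted p = 0.0746). Its level was 42.4, 37.1, 48.6 and 48.5 CPM in MEKi 1, against 25.2, 27.3, 26.7 and 23.6 CPM in Vehicle. It was 34.8, 38.2, 28.5 and 34.0 CPM in anti-TNF, against 39.8, 39.0, 32.8 and 40.6 CPM in Isotype. The MEKi 1 and Vehicle libraries were fully apart and the antibody groups overlapped. Ccdc117 had a difference of 1.39 ± 0.26 (adjusted p = 0.0746), and Luc7l, a U1 snRNP-associated splicing factor, one of 0.87 ± 0.17 (adjusted p = 0.0805). Ccdc117 was higher in all MEKi 1 libraries, at 23.3 to 33.5 CPM, than in Vehicle, at 15.6 to 18.04 CPM, and lower in all anti-TNF libraries, at 16.5 to 22.2 CPM, than in Isotype, at 22.5 to 35.4 CPM. Ctnnbip1, which binds beta-catenin and blocks its partnership with TCF, rose by 1.24 ± 0.18 in MEKi 1 (adjusted p = 0.00222) and had an estimate of 0.17 ± 0.17 in anti-TNF (adjusted p = 0.755). Ankrd10 rose by 1.10 ± 0.19 in MEKi 1 (adjusted p = 0.0067), with 0.03 ± 0.18 in anti-TNF. Ccnt1 (cyclin T1 of the elongation factor P-TEFb), Prdm2, Kbtbd4 and Nufip2 had differences of 0.89, 0.85, 0.95 and 1.13. For Ccdc117, Nfya, Ccnt1, Prdm2 and Nufip2, Isotype was itself above Vehicle, by 0.53 to 0.91 on the log2 scale (adjusted p = 0.0118 to 0.0312).

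Among negative differences, Cldn4, a tight-junction claudin of the epithelium, fell in MEKi 1 and had an estimate nearer 0 in anti-TNF. It was at 44.5, 46.3, 39.4 and 34.3 CPM in MEKi 1, against 138, 161, 154 and 147 CPM in Vehicle. It was at 97.7, 69.1, 107 and 56.9 CPM in anti-TNF, against 136, 69.1, 157 and 105 CPM in Isotype. MEKi 1 lay far below Vehicle and the antibody groups overlapped. Cldn4 fell by 1.86 ± 0.27 in MEKi 1 (adjusted p = 0.00222) and had an estimate of -0.50 ± 0.26 in anti-TNF (adjusted p = 0.484), a difference of -1.37 with a 95% interval of -2.13 to -0.60 (adjusted p = 0.456). Spp1 (osteopontin, a secreted cytokine and matrix protein) fell by 1.43 ± 0.35 and Hspb1 (a small heat-shock protein) by 0.85 ± 0.19 in MEKi 1, against estimates of 0.42 ± 0.32 and 0.24 ± 0.18 in anti-TNF. Hspb1 was also lower in Isotype than in Vehicle by 0.65 (adjusted p = 0.0486), as was Fbxw17 by 0.72 (adjusted p = 0.0479). Spp1 had a lower estimate there by 0.92, which was not called (adjusted p = 0.122). Fbxw17, Pphln1 and Nupl2 had differences of -1.12, -0.78 and -1.03. Igkv12-41, an immunoglobulin segment, had the most extreme value, -13.2, but this rested on 1 count in MEKi 1 and on a Vehicle group whose libraries ran from 1.495 to 295 CPM, and reads may be shared with other segments of the family.

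Most mast cell genes tested had estimates of opposite sign under the treatments. Of 12 listed mast cell and eosinophil genes, 7 were tested, with a median log2 fold change of -0.95 in MEKi 1 against Vehicle and 1.34 in anti-TNF against Isotype. No gene of the list was called in edgeR's quasi-likelihood test of any of the 3 comparisons. In MEKi 1, 5 of the 7 had a negative estimate, with Cpa3 at an unadjusted p under 0.05 (13.7% of all genes were lower at that p). The other 2, Kit and the chymase Cma1, had positive estimates of 0.84 ± 0.31 and 1.30 ± 0.62 in MEKi 1, both at an unadjusted p under 0.05 (16.7% of all genes were higher at that p). In anti-TNF all 7 had a positive estimate, 4 of them at an unadjusted p under 0.05 (5.68% of all genes). The median difference was -2.40, against 0.00 over all genes, and 5 of the 7 had a negative difference at an unadjusted p under 0.05, against 1.79% of all genes. Mcpt1, a chymase of mucosal mast cells, was at 36.0, 186, 44.8 and 13.2 CPM in MEKi 1, against 109, 150, 242 and 86.9 CPM in Vehicle. It was at 169, 82.8, 216 and 37.8 CPM in anti-TNF, against 52.0, 36.4, 39.4 and 69.8 CPM in Isotype. In MEKi 1, 3 of the 4 libraries lay below every Vehicle library and replicate 2 lay among them. In anti-TNF, 3 of the 4 lay above every Isotype library.

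Fcer1a, the IgE-binding chain of the high-affinity IgE receptor, had a difference of -2.96 ± 0.77 (adjusted p = 0.423). Its level was 0.458, 2.09, 1.02 and 0 CPM in MEKi 1, against 1.65, 1.14, 2.99 and 2.84 CPM in Vehicle. It was 2.89, 2.14, 3.302 and 1.44 CPM in anti-TNF, against 0.331, 0.707, 0.694 and 0.921 CPM in Isotype, without overlap. These are low levels, with 16, 40, 77 and 23 counts in the 4 groups in this order. Mcpt4 and Cpa3, further mast cell proteases, had differences of -2.61 ± 0.75 and -2.40 ± 0.76. Mcpt2 had -2.27 ± 0.88, and since Mcpt1 and Mcpt2 are close copies their reads may be shared. Kit, the receptor for stem cell factor, which also marks the pacemaker cells of the gut wall, had a difference of 0.11 ± 0.43, and Cma1 one of 1.09. The summed level of the list was 46.1 to 310 CPM in MEKi 1, 179 to 358 CPM in Vehicle, 127 to 394 CPM in anti-TNF and 75.3 to 156 CPM in Isotype, so the control arms lay apart. In bulk tissue, fewer cells of a type and less RNA per cell cannot be told apart. The list's median difference stayed negative under all 29 alternatives with groups from the samples' own files or with only the antibody libraries renamed, between -3.41 and -1.10.

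The epithelial antimicrobial and defence genes were split in direction. Of 17 tested, 1 rose in MEKi 1 (6.08% of all genes rose), Pigr, which carries IgA across the epithelium, by 1.38 ± 0.34. Saa3, an acute-phase protein, was the 1 that fell (4.51% of all genes fell), by 2.92 ± 0.85. In MEKi 1, 12 had a negative estimate and the median was -0.26. In anti-TNF none was called, 9 had a negative estimate, the median was -0.15, and 3 were higher at an unadjusted p under 0.05 (5.68% of all genes). The same 3, Itln1, Ang4 and Retnlb, had the 3 negative differences at an unadjusted p under 0.05 (1.79% of all genes), and the median difference of the list was -0.23. Itln1 (intelectin, a lectin of goblet and Paneth cells that binds microbial sugars) was at 13.6, 12.1, 48.4 and 90.9 CPM in anti-TNF, against 0.992, 1.42, 0.520 and 3.31 CPM in Isotype. It was at 3.21, 14.2, 4.60 and 1.39 CPM in MEKi 1, against 2.68, 6.08, 11.0 and 3.04 CPM in Vehicle. The anti-TNF libraries lay wholly above Isotype and the MEKi 1 and Vehicle libraries mixed. Its change was 4.61 ± 0.85 in anti-TNF (adjusted p = 0.0632) and 0.14 ± 0.85 in MEKi 1 (adjusted p = 0.929), a difference of -4.47 ± 1.19 (adjusted p = 0.458). Ang4, a secreted antimicrobial ribonuclease, had an estimate of 6.32 ± 1.42 in anti-TNF (adjusted p = 0.164), with 84.4 CPM in replicate 4 and 1.73 to 10.3 CPM in the other 3 anti-TNF libraries, against 0.110 to 0.552 CPM in Isotype. Its change in MEKi 1 was -0.01 ± 1.52. Both genes belong to clusters of close relatives whose reads could be split or shared. Retnlb, another goblet-cell product induced by microbes, had a difference of -1.93 ± 0.82. The chemokine Ccl24, which attracts eosinophils, had an estimate of 1.76 ± 0.43 in anti-TNF (adjusted p = 0.164) and of -0.55 ± 0.44 in MEKi 1. Its control arms lay apart, at 2.24 to 3.64 CPM in Isotype and 6.27 to 13.5 CPM in Vehicle. Isotype was lower by 1.42 ± 0.44, which was not called (adjusted p = 0.0770). Anti-TNF libraries were at 5.23 to 15.6 CPM, a range that overlapped Vehicle.

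Inducible HSP70 genes stood out in the other direction, chosen after their values were seen. Hspa1a was at 20.2, 63.4, 14.3 and 28.4 CPM in MEKi 1, against 4.54, 5.70, 3.74 and 6.497 CPM in Vehicle. It was at 3.32, 7.37, 3.89 and 12.9 CPM in anti-TNF, against 13.0, 22.3, 5.20 and 12.7 CPM in Isotype. All MEKi 1 libraries were above Vehicle, and the antibody groups overlapped with anti-TNF mostly the lower. Hspa1a rose by 2.62 ± 0.69 in MEKi 1 (adjusted p = 0.0270) and had an estimate of -0.97 ± 0.64 in anti-TNF, a difference of 3.58 with a 95% interval of 1.63 to 5.54 (adjusted p = 0.450). Hspa1b had 2.36 ± 0.65 in MEKi 1 (adjusted p = 0.0306), -1.07 ± 0.60 in anti-TNF and a difference of 3.43. Both genes had higher estimates in Isotype than in Vehicle, by 1.38 ± 0.68 for Hspa1a and 1.49 ± 0.64 for Hspa1b. Neither was called there (adjusted p = 0.304 and 0.223). Hspa1b was at 14.0 to 45.5 CPM in Isotype and 8.47 to 11.8 CPM in Vehicle, without overlap. Hspa8, the constitutive HSP70, rose by 0.60 ± 0.19 in MEKi 1 (adjusted p = 0.0428) and had -0.47 ± 0.19 in anti-TNF. The co-chaperones Dnajb1 and Bag3 also rose in MEKi 1, by 0.69 and 0.44. The list of 14 heat-shock genes was also chosen after values of these data were seen, so its counts are no test. Of the 14, 5 rose (6.08% of all genes) and 1 fell in MEKi 1 (4.51% of all genes). In the difference, 6 were positive (3.15% of all genes) and 1 negative (1.79%) at an unadjusted p under 0.05. The list as a whole was split, with 7 of 14 differences positive and medians of 0.03 in MEKi 1, -0.26 in anti-TNF and 0.04 in the difference. No heat-shock gene was called as higher without MEKi 1 replicate 1, or without both libraries high in pancreas transcripts, and the count was 2 with library size alone as the scaling. Of the other 8 genes, none of them called, Dnaja1 and Hspb8 had estimates of 0.28 and 0.32 in MEKi 1, with a difference of 0.62 for Dnaja1 (unadjusted p = 0.0343), and the other 6 had negative estimates in MEKi 1, among them Hsp90aa1 at -0.72, Hspd1 at -0.68 and Hsph1 at -0.51.

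Hspa1a and Hspa1b lie side by side on chromosome 17 and are near copies, so their reads may be shared. Their promoters are shown because both genes rose in MEKi 1. Over 300 bases the RefSeq windows were identical at 296 positions (98.7%). The 130 bases directly before each annotated start (GRCm38.p6, minus strand, chr17:34972157-34972286 for Hspa1a and chr17:34959239-34959368 for Hspa1b) hold 1 match to GAANNTTC, the core of the heat-shock element, in capitals.
Hspa1a: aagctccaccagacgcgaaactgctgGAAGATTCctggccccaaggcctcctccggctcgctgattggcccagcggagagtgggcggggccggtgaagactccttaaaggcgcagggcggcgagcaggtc
Hspa1b: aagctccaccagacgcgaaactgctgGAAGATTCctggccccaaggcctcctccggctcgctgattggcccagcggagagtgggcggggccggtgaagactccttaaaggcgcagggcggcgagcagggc
GAANNTTC reads the same on both strands and was found in 7.86% of 32851 promoters. The matches shown overlap no match of CCAAT.

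**Figure D3:**
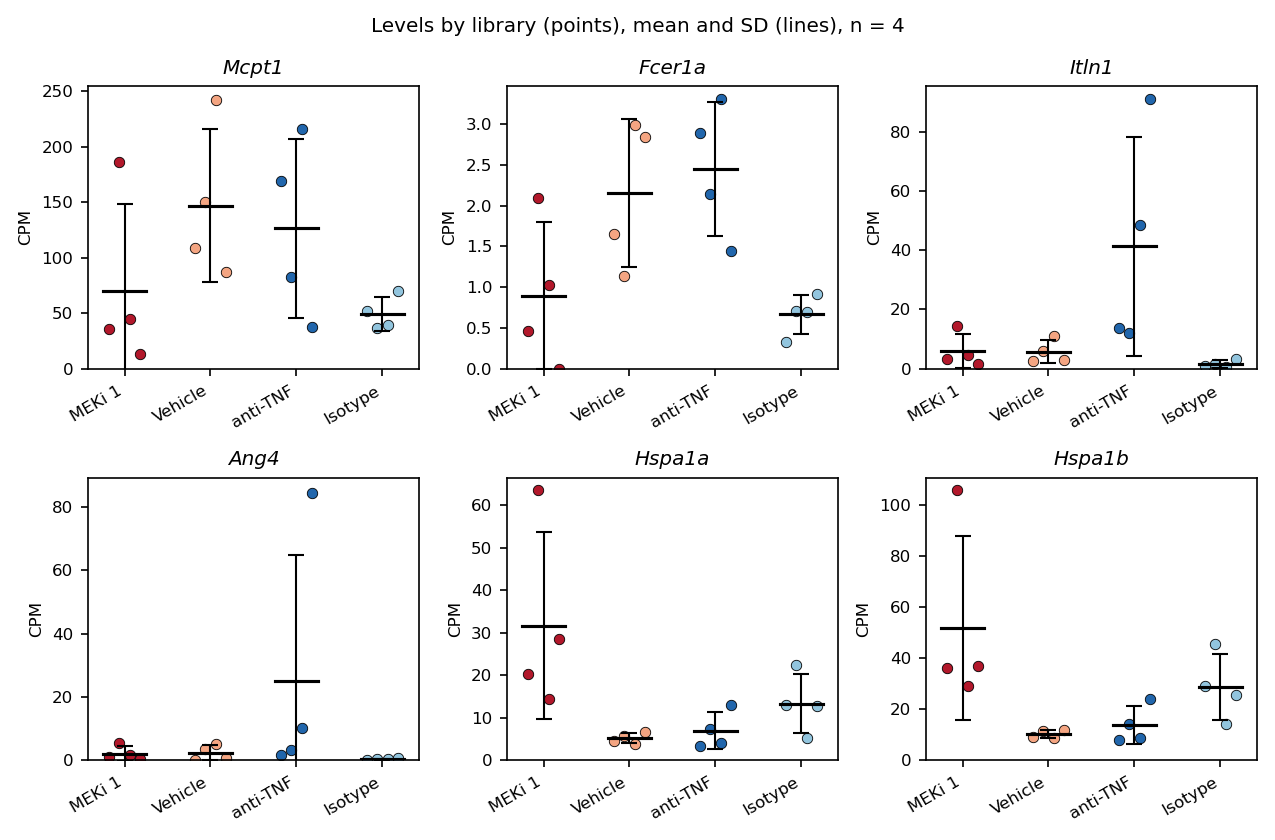
CPM in each library of Mcpt1, Fcer1a, Itln1, Ang4, Hspa1a and Hspa1b, with a bar for the mean and lines for the SD (n = 4 per group). Itln1 reaches 12.1 to 90.9 CPM in anti-TNF and at most 14.2 CPM in the other 3 groups, and Hspa1b reaches 106 CPM in MEKi 1 replicate 2.

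Several genes were called in MEKi 1 with estimates nearer 0 under anti-TNF. Plaur, the urokinase receptor, which is an immediate early gene downstream of ERK, was at 13.7, 31.4, 14.8 and 5.89 CPM in MEKi 1, against 69.4, 60.0, 76.5 and 77.6 CPM in Vehicle. It was at 52.7, 26.9, 43.4 and 14.3 CPM in anti-TNF, against 62.6, 38.6, 48.4 and 34.0 CPM in Isotype. Plaur fell by 2.07 ± 0.42 in MEKi 1 (adjusted p = 0.0114) and had an estimate of -0.42 ± 0.39 in anti-TNF, a difference of -1.65 ± 0.57 (adjusted p = 0.801). The cytokine Il1a fell by 2.70 ± 0.61 in MEKi 1 and the epithelial serine protease Prss22 by 4.90 ± 0.95, with -0.50 ± 0.52 and -1.38 ± 0.64 in anti-TNF. Prss22 had only 6 counts over the 4 MEKi 1 libraries. Cd274 (PD-L1, the ligand of the checkpoint receptor PD-1) fell by 0.89 ± 0.25 in MEKi 1 (adjusted p = 0.0313), with 0.00 ± 0.24 in anti-TNF. The macrophage elastase Mmp12 fell by 1.39 ± 0.41, with 0.17 ± 0.39 in anti-TNF, and it was also lower in Isotype than in Vehicle by 1.45 (adjusted p = 0.0463). Plvap, a protein of endothelial diaphragms, fell by 1.01 ± 0.20, with -0.34 ± 0.19 in anti-TNF. In the other direction, Atoh1, the factor that commits intestinal cells to the secretory lineage, rose by 1.16 ± 0.22 in MEKi 1 (adjusted p = 0.00995), with 0.35 ± 0.21 in anti-TNF. Ppara, the lipid-sensing receptor that drives fatty acid oxidation, rose by 2.84 ± 0.73, with 56 counts in MEKi 1 and 9 in Vehicle, and had 0.84 ± 0.54 in anti-TNF. Its target Angptl4 fell by 2.70 ± 0.57, with -0.80 ± 0.48 in anti-TNF. None of these differences was called.

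The pathways named by each treatment gave few calls. Of 19 tested ERK feedback and output genes, 1 fell and 0 rose in MEKi 1 (4.51% of all genes fell), and the list's median was -0.14 in MEKi 1 and -0.14 in anti-TNF. The 1 gene was Ier3, an immediate early gene and also an NF-kB target, at 19.0, 25.3, 18.4 and 17.7 CPM in MEKi 1, against 43.4, 36.6, 30.7 and 50.6 CPM in Vehicle. Ier3 fell by 1.00 ± 0.24 (adjusted p = 0.0182) and had an estimate of -0.76 ± 0.23 in anti-TNF. Dusp6, the ERK phosphatase, was at 58.2 to 82.3 CPM in MEKi 1 and at 54.0 to 65.9 CPM in Vehicle, with a change of 0.19 ± 0.22 (adjusted p = 0.589). Etv4 had -0.51 ± 0.32, Etv5 -0.03 ± 0.35 and Spry4 -0.14 ± 0.28 in MEKi 1, none called. The Etv4 libraries did not overlap, at 8.02 to 13.0 CPM in MEKi 1 and 13.2 to 20.2 CPM in Vehicle. In MEKi 0.3, Etv4 was at 6.55 to 11.4 CPM, also below every Vehicle library. Its estimate in anti-TNF was -0.10 ± 0.30, with overlap. The colons were taken 1 day after the last dose, on day 28 against day 27. Of the 14 immediate early genes, Plaur alone fell in MEKi 1 (4.51% of all genes fell). Of 7 ligands of the EGF receptor none was called (10.6% of all genes were called in MEKi 1). Their median in MEKi 1 was -0.33, and 2 were lower at an unadjusted p under 0.05 (13.7% of all genes). Of 10 TNF ligands and receptors, Ltb fell in MEKi 1, by 0.87 (4.51% of all genes fell), and 4 were lower at an unadjusted p under 0.05 (13.7% of all genes). None was called in anti-TNF, where only 0.0203% of all genes were called. There 8 of the 10 had a negative estimate, 4 of them at an unadjusted p under 0.05 (5.51% of all genes). Tnf itself had -0.94 ± 0.50 in MEKi 1 and -0.68 ± 0.48 in anti-TNF.

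Neutrophil genes fell under MEK inhibition and had nearly as negative estimates under anti-TNF. Of 19 tested, 13 fell in MEKi 1 (median -2.89), against 4.51% of all genes. In anti-TNF 2 fell (median -2.23), against 0.0135% of all genes. Those 2, Gpr84 and Mcemp1, were the only genes called lower in anti-TNF and were added after their values were seen. Their count is therefore no test of the list. No gene of the list had an unadjusted p under 0.05 in the difference, against 4.93% of all genes. Gpr84, a receptor for medium-chain fatty acids on myeloid cells, was at 0.229, 0.837, 0.511 and 0 CPM in MEKi 1, against 5.16, 5.70, 2.49 and 8.53 CPM in Vehicle. It was at 0.289, 0, 0.118 and 0.131 CPM in anti-TNF, against 4.96, 3.77, 7.28 and 2.30 CPM in Isotype. It fell under both treatments, by 3.61 ± 0.62 in MEKi 1 (adjusted p = 0.0067) and by 4.92 ± 0.65 in anti-TNF (adjusted p = 0.000969). Mcemp1, a membrane protein of mast cells and neutrophils, fell by 2.56 ± 0.51 and 2.81 ± 0.49 (adjusted p = 0.0108 and 0.0403). S100a9, a subunit of calprotectin, was at 2.98, 50.5, 14.3 and 28.4 CPM in MEKi 1, against 279, 388, 219 and 668 CPM in Vehicle. It was at 207, 28.8, 120 and 15.9 CPM in anti-TNF, against 369, 195, 645 and 103 CPM in Isotype. It fell by 4.01 ± 1.08 in MEKi 1 and had an estimate of -1.82 ± 0.97 in anti-TNF, and the 95% interval of the difference, -5.08 to 0.69, does not tell equal effects from a much larger fall in MEKi 1. Its partner S100a8 had -2.64 ± 0.75 (adjusted p = 0.0353) and -1.06 ± 0.69.

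**Figure D4:**
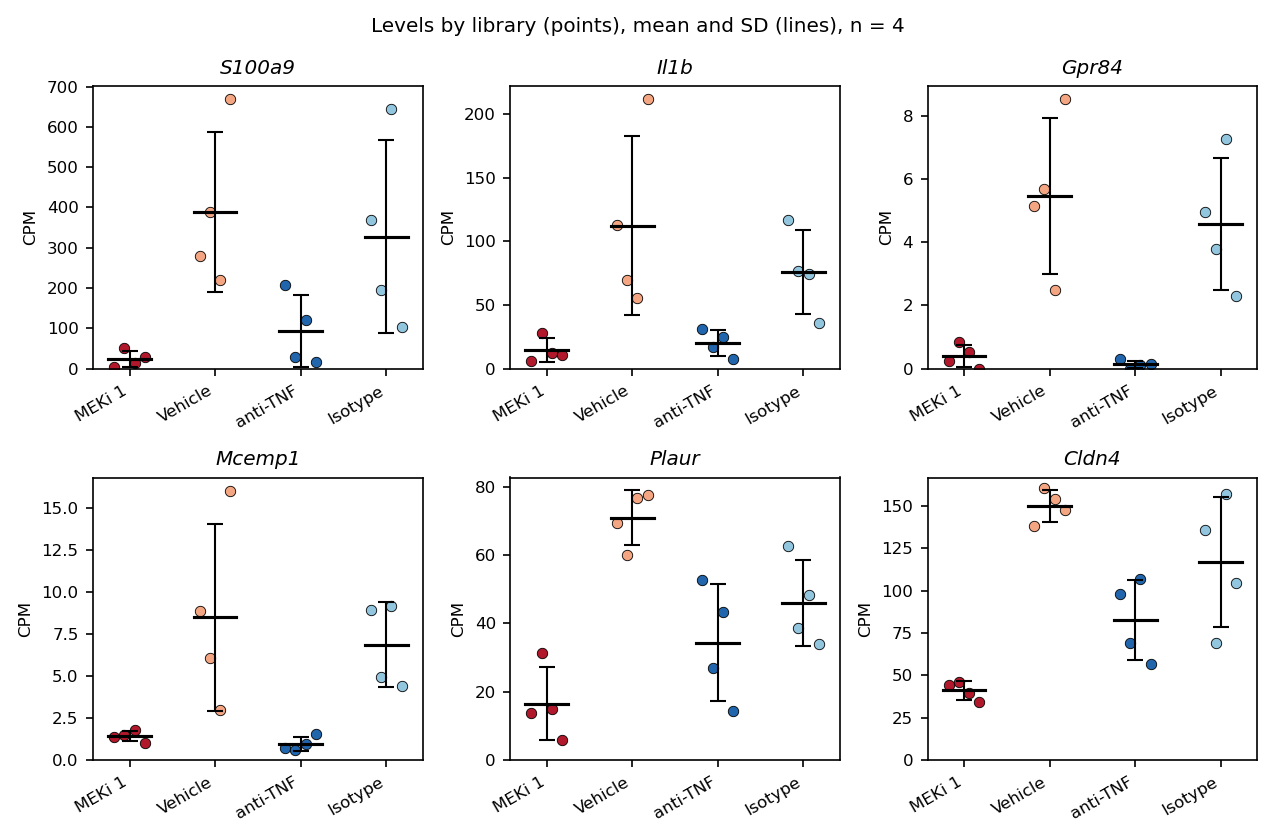
CPM in each library of S100a9, Il1b, Gpr84, Mcemp1, Plaur and Cldn4, with a bar for the mean and lines for the SD (n = 4 per group). Gpr84 and Mcemp1 are below their controls under both treatments without overlap, and Plaur and Cldn4 are apart from their control in MEKi 1 only.

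Of 23 tested TNF and NF-kB targets, 10 fell in MEKi 1 (median -0.80), against 4.51% of all genes. None was called in anti-TNF (median -0.60), where only 0.0203% of all genes were called. There 14 had a negative change at an unadjusted p under 0.05, against a background of 5.51%. Il1b was at 6.19, 28.3, 12.5 and 10.8 CPM in MEKi 1, against 113, 69.3, 55.6 and 212 CPM in Vehicle. It was at 31.2, 17.1, 25 and 7.22 CPM in anti-TNF, against 117, 76.9, 74.4 and 36.1 CPM in Isotype, and neither pair overlapped. Il1b fell by 2.94 ± 0.57 in MEKi 1 (adjusted p = 0.0112) and had -1.92 ± 0.54 in anti-TNF (adjusted p = 0.223). The monocyte chemokine Ccl2 had -1.93 in MEKi 1 and -1.74 in anti-TNF, and P-selectin (Selp), which captures leukocytes on endothelium, had -2.07 in both. The stromal protease Mmp3 had -3.90 and -3.65, and its inhibitor Timp1 had -2.20 and -2.32. Those 4 genes were called in MEKi 1 and not in anti-TNF.

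Over all genes, 4.51% fell in MEKi 1. Of 18 monocyte and macrophage genes, 11 fell in MEKi 1 (median -1.26, and -0.63 in anti-TNF), and of 18 T cell genes, 9 fell (median -0.97, and -0.55 in anti-TNF). In anti-TNF, 17 of the 18 T cell genes had a negative estimate, against 7440 of 14773 genes tested, and Trbc1 alone had a positive one. The receptor-chain gene Trbc1 fell by 1.27 ± 0.37 and the kinase Zap70 by 0.98 ± 0.29 in MEKi 1. They had 0.03 ± 0.36 and -0.01 ± 0.27 in anti-TNF, unlike the list's median there. Trbc1 was lower in Isotype than in Vehicle by 1.29 (adjusted p = 0.0492). Both Trbc1 and Zap70 were also among 17 T cell genes with a negative difference, and 7 of 8 cytotoxic and NK cell genes had one too. Over all genes, 7295 of 14773 differences were negative. Isotype against Vehicle had medians of -0.45 for T cell, -0.61 for cytotoxic and NK cell, and -0.42 for macrophage genes. The medians of the difference were alike, at -0.44, -0.61 and -0.40. The summed T cell level was 232 to 312 CPM in Vehicle and 166 to 215 CPM in Isotype. It was 99.5 to 204 CPM in MEKi 1 and 82.7 to 188 CPM in anti-TNF. Of 26 cell-cycle genes, 25 had a negative difference, with medians of -0.67 in MEKi 1 and -0.26 in anti-TNF, and 2 fell in MEKi 1, Ccnb1 and Pcna. Of 18 collagen and matrix genes, 7 fell in MEKi 1 (median -0.68, and -0.42 in anti-TNF), among them Col1a1 by 1.24 ± 0.30. All 20 genes of the type I interferon response had a negative difference, with medians of 0.17 in MEKi 1 and 0.57 in anti-TNF, and 1 had an unadjusted p under 0.05 (1.79% of all genes were negative at that p), a count of 1 to 6 when 1 library was left out. At that p, 0 of the 20 were higher in MEKi 1 (16.7% of all genes) and 7 in anti-TNF (5.68% of all genes). None of the 20 was called in either treatment, and the genes share regulators and libraries and are not independent.

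Some epithelial and metabolic genes rose in MEKi 1, a minority of each list, against 6.08% of all genes. Of 19 genes of fatty acid oxidation, 7 rose and 1 fell in MEKi 1 (median 0.63, and 0.34 in anti-TNF). Of 16 xenobiotic metabolism genes, 4 rose (median 1.19, and 0.78), of 16 surface colonocyte genes, 3 rose (median 0.69, and 0.46), and of 15 goblet cell genes, 3 rose (median 0.50, and 0.43). Sult1a1, a sulfotransferase, was at 201, 28.7, 198 and 88.8 CPM in MEKi 1, against 5.78, 9.30, 6.98 and 7.72 CPM in Vehicle. It was at 8.37, 70.5, 13.0 and 269 CPM in anti-TNF, against 2.87, 13.9, 5.90 and 28.8 CPM in Isotype. It rose in MEKi 1 by 4.11 ± 1.09 (adjusted p = 0.0282), and 2 of the 4 anti-TNF libraries were high and 2 within the range of Isotype. Of the most raised genes in MEKi 1, the cytochromes Cyp2c68, Cyp2d10, Cyp2d12 and Cyp2f2, and Gsdmc3, Hao2 and Tgm3, had 3.26 to 4.63 in MEKi 1 and 1.13 to 3.41 in anti-TNF. Of the most lowered, the acute-phase protein Hp and the lectin Clec4e had -4.00 and -4.31 in MEKi 1 and -3.58 and -4.89 in anti-TNF. Atg9b and Spink6 had -3.74 and -3.85 in MEKi 1, and -2.07 and -2.04 in anti-TNF.

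These list counts carried the dependence of the whole comparison on single libraries. Without MEKi 1 replicate 1, the falls in MEKi 1 numbered 1 for neutrophil, 2 for monocyte and macrophage, and 0 for T cell, TNF and NF-kB target, and collagen genes, and 0 fatty acid oxidation genes rose. Without both libraries high in pancreas transcripts they numbered 4, 5, 0, 4 and 5, and 2 fatty acid oxidation genes rose. The medians of the difference for macrophage, T cell, cell-cycle, type I interferon, collagen, surface colonocyte, fatty acid oxidation and xenobiotic genes kept their sign in all 29 of those alternatives, while the neutrophil median was positive in 1 and the TNF and NF-kB target median in 4.

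**Figure D5:**
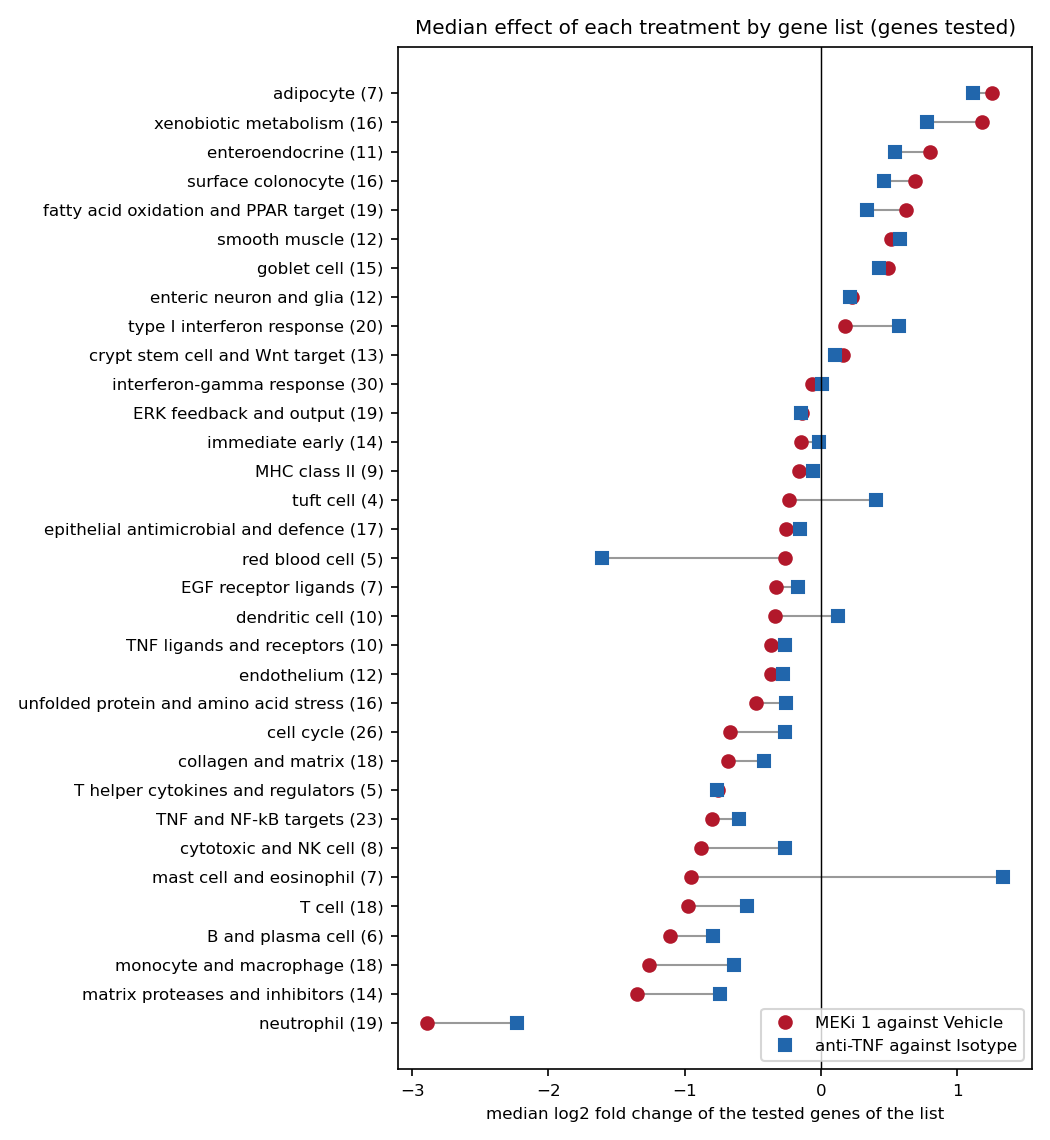
Median log2 fold change of the tested genes of each list drawn, in MEKi 1 against Vehicle (circles) and in anti-TNF against Isotype (squares), with the number of genes tested in parentheses. The pancreas list, with medians of -9.965 and -10.42, and the skeletal muscle and squamous epithelium lists are not drawn. Among the lists drawn, neutrophil is lowest for both, at -2.89 and -2.23. The mast cell and eosinophil list has medians of opposite sign, -0.95 and 1.34.

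Across genes, the 898 raised in MEKi 1 had a positive anti-TNF change in 800 (89.1%, against 49.6% of all genes), with medians of 0.84 in MEKi 1 and 0.35 in anti-TNF. That share was 74.9% without both libraries high in pancreas transcripts and 60.0% to 92.6% when 1 library was left out. The 667 lowered in MEKi 1 had a negative anti-TNF change in 629 (94.3%, against 50.4% of all genes), with medians of -1.09 and -0.56. The smaller medians in anti-TNF are affected by the choice of the genes on the MEKi 1 value. Taken from the other side, the 839 genes with a positive anti-TNF change at an unadjusted p under 0.05 had medians of 0.61 in MEKi 1 and 0.64 in anti-TNF, and the 814 with a negative one had -0.83 and -0.76. The Pearson correlation of both effects over 14773 genes was 0.716 (Spearman 0.636), and 0.528 without both libraries high in pancreas transcripts. It was 0.797 with a filter at a mean of at least 5 CPM, 0.333 with limma-voom and sample weights, and 0.304 with no filter on low counts. With all libraries named as in the series table it was -0.388, and with only the antibody libraries so named 0.533. Genes are not independent replicates, and the effects share no library but do share a normalisation. Of the 1565 genes called in MEKi 1, 230 of those raised and 128 of those lowered had an unadjusted p under 0.05 in the difference, counts inflated by the shared MEKi 1 and Vehicle libraries.

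The gap between the control arms enters the difference. In Isotype against Vehicle, 442 genes (2.99%) were called, 195 higher (1.32%) and 247 lower (1.67%). This count was 263, 150 and 136 when replicates 1, 3 and 4 of Vehicle were left out one at a time, and 188 and 128 for replicates 2 and 4 of Isotype. Over 14129 genes, the log2 fold change of Isotype against Vehicle had a Spearman correlation with transcript length of 0.506, against 0.217 for the difference of effects, 0.226 for MEKi 1 against Vehicle and 0.087 for anti-TNF against Isotype. With an offset for length in each library, Isotype against Vehicle had 34 calls and the difference still had Banp and Klf11.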

How the data were processed

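Poly(A) RNA of distal colon was fragmented with RNase III and sequenced on Ion Torrent, per the labels' protocols. The authors deposited whole-number counts per gene symbol, 1 file per library, with mm10 as the build per the submitters' processing notes. No source used here gives the aligner, counter or strand setting. Libraries were grouped by their own files.

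All 24 libraries entered 1 fit of group means with edgeR 4.0.16 (R 4.3.3), using filterByExpr, TMM factors, robust quasi-likelihood F tests and Benjamini-Hochberg adjustment over 14773 genes. The script was tested on simulated data. SEs came from the F statistic, and 0.125 was the prior count of the fit. Transcript lengths and positions came from GENCODE M21, with a length for 39469 of 43280 symbols, and promoters from RefSeq.

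Named genes were those called in the difference, the 10 smallest p in each direction at a mean of at least 5 CPM, the 8 most changed each way in each treatment among called genes without overlap, and up to 4 members of each list. A fixed set, among them Dusp6, Spry4, Etv4, Etv5, Tnf and S100a8, was named as well. Gpr84 and Mcemp1, named as members of the neutrophil list, and the heat-shock genes were added after their values were seen. Mcpt1, Mcpt2, Cma1, Retnlb, Selp, Trbc1 and Zap70 fell outside these rules and were picked as further list members. The members and lists were chosen with earlier results of these data known. Alternatives used DESeq2 1.42.0 and limma 3.58.1 among others.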

Additional observations from a re-analysis of the deposited data

Results flagged for a closer look

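Banp and Klf11 stood out because their response to MEK inhibition differed from their response to anti-TNF by a test of the difference itself, at 2.64 and -2.44 on the log2 scale.

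Among 28 genes in 112 groups of 4 libraries, 9 groups held a library far from the other 3, where chance gives about 1 in 20 groups. MEKi 1 replicate 2 was high for Hspa1b at 106 CPM, for Tnf at 40.6 CPM and for Dusp6 at 82.3 CPM. Anti-TNF replicate 4 was high for Ang4 at 84.4 CPM. Isotype replicate 3 was low for Luc7l at 44.1 CPM, and Isotype replicate 2 was low for Spp1 at 3.77 CPM. Ccl24 was at 13.5 CPM in Vehicle replicate 3. Etv4 was at 20.2 CPM in Vehicle replicate 1 and at 23.7 CPM in Isotype replicate 1.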

How the results depend on the processing

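Banp and Klf11 were also called with DESeq2, with RLE factors or none, with either other filter on low counts, with an offset for length, in a fit of the 4 groups alone, with the replicate block and after each removal of 1 library. The difference had 8 calls with DESeq2, 1288 with limma-voom and sample weights (2 without weights, an alternative chosen after seeing the data), and 2 to 5 when 1 library was left out. MEKi 1 against Vehicle, with 1565 calls, had 2305 with DESeq2, 4807 with weighted voom, 907 with unweighted voom, 773 with no filter (27509 genes tested), 391 without both libraries high in pancreas transcripts (chosen after seeing the data) and 43 to 2369 when 1 library was left out. Anti-TNF against Isotype had 85 with DESeq2, 45 with weighted voom, 0 at a mean of at least 5 CPM and 1 to 34 when 1 library was left out. Isotype against Vehicle had 784 with DESeq2, 2916 with weighted voom, 267 with no filter, 34 with the length offset, 154 without the pancreas-high libraries and 128 to 564 when 1 library was left out. The share of raised genes with the same sign was 64.2% with weighted voom, 86.1% with unweighted voom, 91.2% with the length offset, 74.9% without the pancreas-high libraries and 60.0% to 92.6% when 1 library was left out. The share of lowered genes was 62.8% with weighted voom, 96.2% with unweighted voom, and 86.3% to 100% when 1 library was left out.

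Replicate numbers were not used as pairs in the main fit, because not every same-numbered pair passed a correlation threshold of 0.1. Same-numbered MEKi 1 and Vehicle libraries had correlations of -0.026 to 0.0659. For anti-TNF and Isotype they were 0.216, 0.0862, 0.142 and 0.342, all positive and only replicate 2 below the threshold. Antibody libraries of different number had correlations of -0.344 to 0.235. With the replicate block the counts were 2 for the difference, 1149 for MEKi 1, 2 for anti-TNF and 375 for Isotype against Vehicle, and with the block in the 4 groups alone 5, 1066, 0 and 221. The share of lowered genes with the same sign was then 96.0% and 96.1%.

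Taking only the antibody libraries by the table's column names (chosen after seeing the data) gave 0 calls in the difference (1025 at an unadjusted p under 0.05), 1013 for MEKi 1, 0 for anti-TNF, a share of lowered genes of 92.2%, and reversed anti-TNF changes of 0.024 for Gpr84 and 0.032 for Mcemp1. The antibody libraries named alike in both gave 1 call for anti-TNF, which was none of Gpr84, Mcemp1 and Klf11. The other comparisons could not be fitted on such libraries. Taking all libraries by those names gave 0 calls in the difference (876 unadjusted), 0 for MEKi 1 (1334 unadjusted), 0 for anti-TNF and 162 for Isotype against Vehicle. Directions then reversed in the difference for Ankrd10 (-0.43), Banp (-0.75), Ccdc117 (-0.42), Ccl24 (1.06), Ccnt1 (-0.26), Cldn4 (0.45), Ctnnbip1 (-0.037), Fbxw17 (0.59), Igkv12-41 (1.75), Kbtbd4 (-0.30), Nfya (-0.036), Nufip2 (-0.52), Nupl2 (0.20), Pphln1 (0.46), Prdm2 (-0.31) and Spp1 (1.66). In MEKi 1 they reversed for Atg9b (1.45), Clec4e (0.68), Cyp2c68 (-1.53), Cyp2d10 (-1.75), Cyp2d12 (-2.08), Cyp2f2 (-2.25), Gsdmc3 (-2.20), Hao2 (-1.88), Hp (1.00), Igkv12-41 (5.28), Mmp3 (0.59), Prss22 (1.24), S100a9 (1.10), Spink6 (0.41), Sult1a1 (-1.28) and Tgm3 (-1.82), and in anti-TNF for Gpr84 (0.0497) and Mcemp1 (0.0471). The cause of these changes beyond the regrouping itself was not tested. Depth limits genes of few counts, such as Gpr84 and Prss22.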

Other observations

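Hemoglobin and other red cell genes (5 tested) had a median change of -0.26 in MEKi 1 against Vehicle and -1.60 in anti-TNF against Isotype, and none was called. All 5 were lower in anti-TNF at an unadjusted p under 0.05 (5.51% of all genes). Their summed level was 26.2 to 78.9 CPM in MEKi 1, 40.4 to 94.0 CPM in Vehicle, 19.5 to 66.1 CPM in anti-TNF and 27.2 to 254 CPM in Isotype. The 254 CPM belonged to Isotype replicate 3 alone, and the other 3 Isotype libraries were at 74.1, 27.2 and 39.8 CPM, overlapping anti-TNF. Smooth muscle genes (12 tested) had medians of 0.51 in MEKi 1, where 2 rose (6.08% of all genes), and 0.58 in anti-TNF, where 8 were higher at an unadjusted p under 0.05 (5.68% of all genes). Of 30 genes of the interferon-gamma response, Cd274 alone fell in MEKi 1, and the medians were -0.07 in MEKi 1 and 0.01 in anti-TNF. None of 9 MHC class II genes was called under either treatment, with medians of -0.16 and -0.06.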
